A study of Caenorhabditis elegans with 2 samples.

Results

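The fbxc genes of Caenorhabditis elegans encode 1 of the F-box protein families of the worm. Their 48 protein-coding genes, of 19985 in the Ensembl WBcel235 annotation, were chosen by the name fbxc-. The family was picked for description because strong regions at fbxc-29, fbxc-33 and fbxc-19 had already been seen in the same lists, so every signal, rank and share below is a description and no test was run on it. The 48 genes carry 42 distinct symbols, because the annotation repeats fbxc-4, fbxc-5 and fbxc-8 over several copies. Of them 35 lie on chromosome II and 13 on chromosome IV.

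The study mapped where eGFP-tagged TLP-1, a zinc finger protein known for its part in cell fate and in shaping the male tail, was found on chromatin in whole L1 larvae of both sexes by ChIP-seq. The strain was OP321, with genotype unc-119(tm4063) III and the tlp-1 insertion wgIs321, and 2 biological replicates made up its single group. DNA fragments ranged from 150 to 350 bp. Whole animals were used, so a region says nothing about the cells in which it arose. The lists had been made against a control, and no list from an untagged strain was used here.

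F-box proteins are the substrate-choosing subunits of SCF ubiquitin ligases. The F-box binds a Skp1-related protein (SKR in the worm), which links it to the cullin CUL-1 and the RING protein RBX-1, while the rest of the protein holds the target that is to be ubiquitylated. Nematode genomes carry unusually many F-box genes, often in tandem runs that differ between species, and for most of them the targets are unknown.

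A gene counted as having a region when the summit of a region, its point of highest signal, lay in the gene body or within 2000 bp of a transcription start site (TSS). The authors deposited 28183 regions for replicate 1, 23975 for replicate 2, 11633 for both replicates pooled, and a thresholded list of 328 derived from these. The unthresholded lists hold weak regions by design. Signal is the authors' value per region, has its own scale in each list, and was ranked within a list with 1 as the highest. Total read counts were not given, so the depth behind a region is unknown.

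The sequences around the summits at which the members' regions and GATA sites can be seen are given first, on build ce11, plus strand, with each match to WGATAR in capitals. This consensus of GATA-family zinc finger factors reads GATA with T or A before it and A or G after it. It was searched on both strands, and a match on the minus strand shows TATC in its middle. Capitals mark matches lying wholly inside the printed stretch. The first is chrII:915355-915455, between fbxc-33 and fbxc-29, which carried the highest signal of the family. The second is chrII:1820184-1820213, a short stretch beside the summit upstream of fbxc-19 that holds both of its sites. The others are chrII:973003-973103 upstream of fbxc-14 and chrII:922938-923038 upstream of fbxc-28, the strongest pooled regions of the family outside the thresholded list.
fbxc-29 and fbxc-33: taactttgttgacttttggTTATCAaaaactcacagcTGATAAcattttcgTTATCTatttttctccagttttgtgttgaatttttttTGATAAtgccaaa
fbxc-19: aaaaaactTGATAAgatTGATAAgaaactg
fbxc-14: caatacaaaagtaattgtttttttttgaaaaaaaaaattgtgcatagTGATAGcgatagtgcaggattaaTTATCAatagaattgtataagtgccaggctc
fbxc-28: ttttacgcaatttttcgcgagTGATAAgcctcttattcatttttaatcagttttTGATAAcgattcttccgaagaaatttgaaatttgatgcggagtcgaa

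The family had few regions, yet 2 of them were among the strongest of the nuclear genome. In the thresholded list 3 of 48 fbxc genes had a region (6.25%), against 1.77% of all protein-coding genes. In the pooled list 9 fbxc genes had a region (18.8%), against 40.1% of all protein-coding genes. Because the thresholded regions are what drew attention to the family, nothing is read from the first of these shares.

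Each replicate on its own also placed fewer regions at the family. In replicate 1, 16 fbxc genes had a region (33.3%), against 70.8% of all protein-coding genes. In replicate 2, 19 fbxc genes did (39.6%), against 65.5%. Regions of both replicates that overlapped by at least 1 bp lay at 6 fbxc genes (12.5%), against 31.7% of all protein-coding genes. No region in any of the 4 lists lay at 26 fbxc genes (54.2%), against 15.6% of all protein-coding genes. The counts in the replicate lists are not independent of the pooled list, which holds both replicates.

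**Figure D1:**
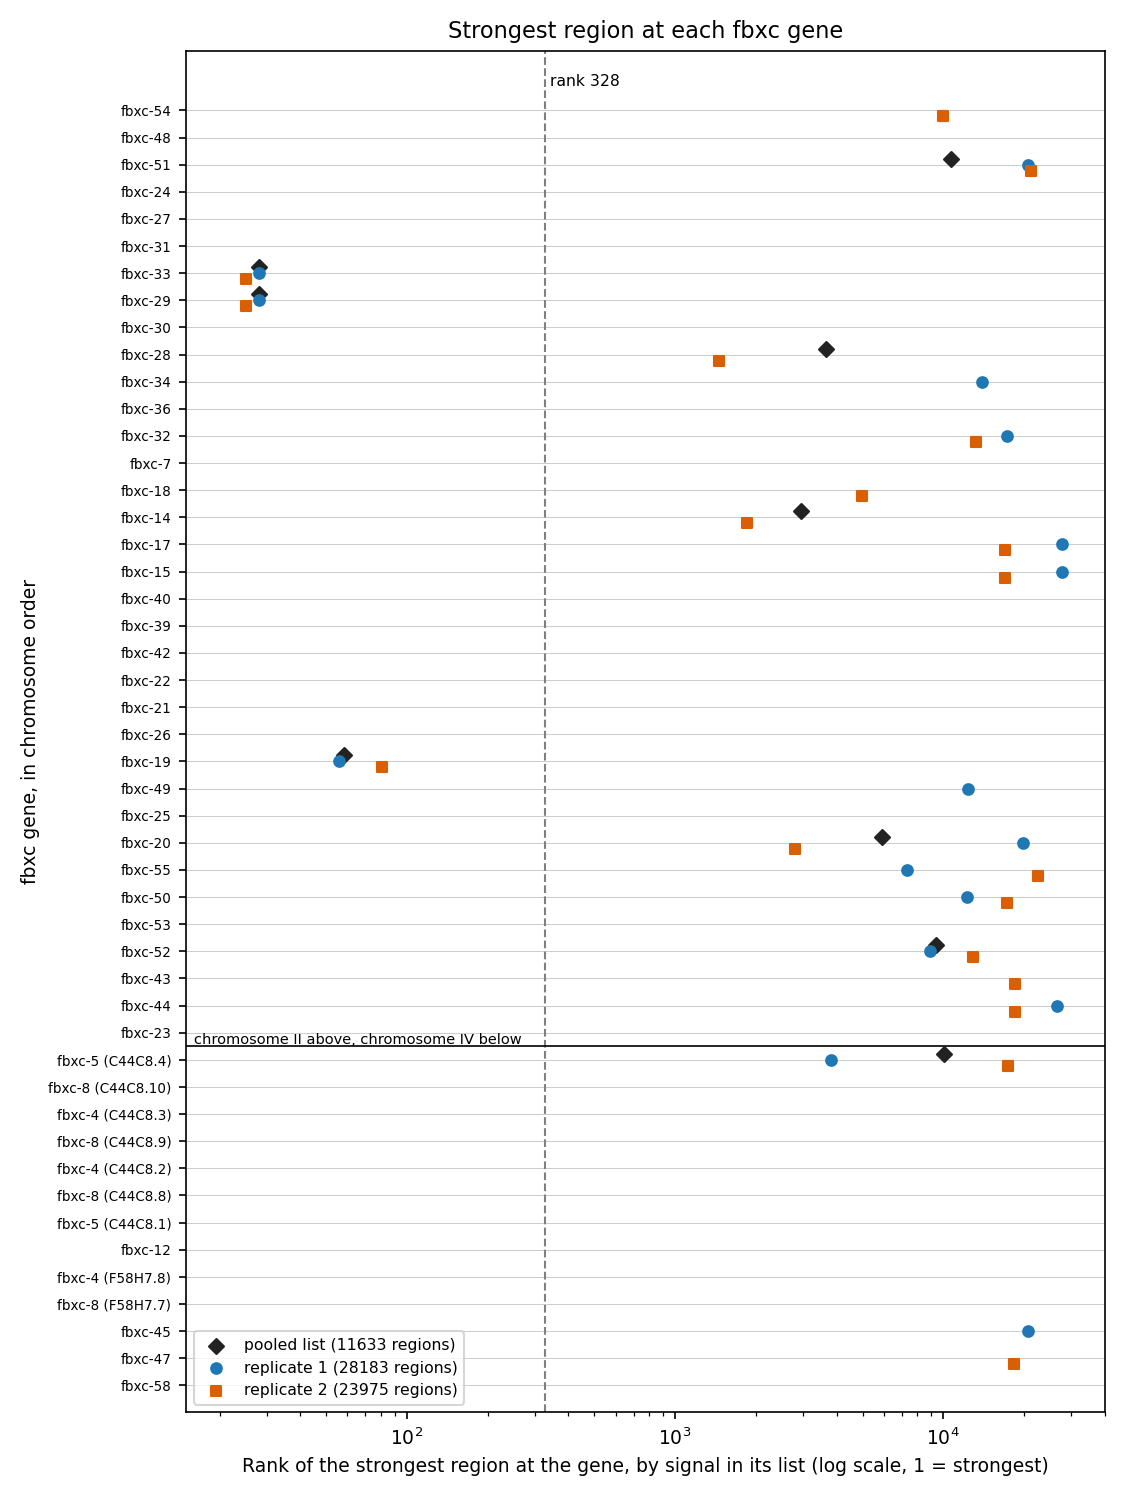
Rank of the strongest region at each of the 48 fbxc genes (rows, in chromosome order) in the list of pooled replicates and in those of replicates 1 and 2; a gene with no point had no region in that list, and the dashed line marks rank 328, the length of the thresholded list. Only fbxc-33 and fbxc-29, which share 1 region, and fbxc-19 have points left of the line, and they do so in all 3 lists.

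Counted per length of window, the same order was found. The merged windows of the fbxc genes span 154832 bp. They held 0.581 pooled regions per 10 kb, against 1.11 in the windows of all protein-coding genes. The values were 1.10 against 2.75 in replicate 1 and 1.16 against 2.34 in replicate 2. For thresholded regions the direction was the other way, with 0.129 per 10 kb at fbxc genes and 0.0333 at all protein-coding genes, and it rests on 2 regions.

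The strongest region of the family lay between fbxc-33 and fbxc-29, both transcribed from the plus strand of chromosome II. It spans chrII:915342-915497, and its summit at 915405 lies in a gap of 860 bp, 186 bp past the end of fbxc-33 (chrII:913672-915219) and 675 bp before the start of fbxc-29 (chrII:916080-917470). Its signal was 151.6 in the pooled list, 62.2 in replicate 1 and 90.7 in replicate 2. It ranked 28 in the pooled list, 28 in replicate 1 and 25 in replicate 2, so both replicates placed it almost alike.

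Among nuclear regions alone, since 25 mitochondrial regions lie in the thresholded list, its rank was 4 in the pooled list, 3 in replicate 1 and 5 in replicate 2. The summits of the replicates lay 20 bp apart. Ordered by the highest pooled signal at each gene, fbxc-29 and fbxc-33 stood 4 of the 8011 nuclear protein-coding genes that had a pooled region. The lowest signal in the thresholded list was 38.19. No other annotated gene overlaps this region, and a search of the genome found 0 further copies of at least 100 bp and 80% identity. The neighbours on either side, fbxc-31 and fbxc-30, had no region in any list.

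The next region lay upstream of fbxc-19, also on chromosome II. It spans chrII:1820007-1820326, with its summit at 1820167, 312 bp before the start of fbxc-19 (chrII:1820479-1823039, plus strand). Its signal was 70.2 in the pooled list, 29.6 in replicate 1 and 39.1 in replicate 2, with ranks of 58, 56 and 81. Both replicates again placed it far above rank 328, with summits 1 bp apart.

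This region is shared with other F-box genes. Its summit lies inside fbxa-3 (chrII:1818889-1820874), which runs on the minus strand across the start of fbxc-19, and within 2000 bp of the start of fbxb-10. The non-coding gene linc-16 also overlaps its edge. Which of these genes, if any, the region acts on was not tested. The same signal of 70.2 therefore stands for 1 gene in each of the fbxc, fbxa and fbxb families.

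Below the threshold the family had 7 pooled regions at 6 genes, and the signals fell off steeply. At fbxc-14 the pooled signal was 19.6 (rank 2937), and at fbxc-28 it was 18.5 (rank 3645). These 2 had the highest signals of the members outside the thresholded list, and fbxc-19 with 70.2 had the lowest of those inside it. None of the 3 lay near the lowest thresholded signal of 38.19. Replicate 2 had a region at fbxc-14 with a signal of 15.7 (rank 1859) and 1 at fbxc-28 with a signal of 16.6 (rank 1463). Replicate 1 had none at either gene. The summits lay 1246 bp before fbxc-14 (chrII:974299-975545) and 833 bp before fbxc-28 (chrII:923821-925196), each within 10 bp of the summit in replicate 2. The summit upstream of fbxc-14 is shared with C32B5.15.

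The remaining 5 pooled regions had signals of 13.8 to 16.4, with ranks from 5909 to 10649. Upstream of fbxc-20 (chrII:2419136-2420793) 2 regions had pooled signals of 16.4 and 16.3. The first, in a coding exon of F42G2.5, was overlapped by a region of replicate 2 (signal 7.54) and by none of replicate 1. The second, at the start of F42G2.7, was overlapped in replicate 1 (signal 5.18, rank 19816) and in replicate 2 (signal 14.1, rank 2808), with the replicates' summits 233 bp apart. Both regions thus lie at genes other than fbxc-20 as well.

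At fbxc-52 (chrII:3717261-3719764) a region 341 bp before the start had signals of 14.4 in the pooled list, 4.43 in replicate 1 and 9.26 in replicate 2. At fbxc-51 (chrII:868814-871699) the summit lay 103 bp inside the gene, with signals of 13.8 in the pooled list and 7.60 in replicate 2, and no overlapping region in replicate 1. At the first copy of fbxc-5 on chromosome IV (C44C8.4, chrIV:891239-892614) the summit lay 1683 bp before the start, in an intron of mak-2, a kinase gene. That region had signals of 14.1 in the pooled list and 9.19 in replicate 1, and no overlapping region in replicate 2. Of these 4 genes, fbxc-52 and fbxc-20 alone had a pooled region with a counterpart in both replicates.

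In all, 4 of the 9 pooled regions at fbxc genes were overlapped by regions of both replicates (44.4%), against 53.6% of all 11608 nuclear pooled regions. Below the threshold it was 2 of 7 at fbxc genes (28.6%), against 52.4% of 11305. The highest pooled signals of the 6 fbxc genes outside the leading 2 regions ran from 13.8 to 19.6. Over all 9 fbxc genes with a pooled region the median was 18.5, against 17.3 for the 8014 other protein-coding genes with one. The 9 include the genes that drew attention to the family, so nothing is read from this comparison. Of the 6, fbxc-14 and fbxc-28 lay above 17.3, a median that keeps the strongest genes of its own set.

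A further 13 fbxc genes had regions in replicate lists and none in the pooled list. Such genes are common. Of all protein-coding genes 40.1% had a pooled region and 15.6% no region in any list, and the rest belong here. At fbxc genes the same shares were 18.8% and 54.2%, so this class was the smaller part of the family. Of the 13 fbxc genes, fbxc-34, fbxc-49 and fbxc-45 had regions in replicate 1, and fbxc-54, fbxc-18, fbxc-43 and fbxc-47 in replicate 2. The other 6 were fbxc-32, fbxc-17, fbxc-15, fbxc-55, fbxc-50 and fbxc-44, with regions in both lists. At fbxc-50 (chrII:3246316-3248123) alone among them the replicates' regions overlapped, with signals of 6.41 in replicate 1 and 8.30 in replicate 2. The summits of these 2 regions lay 249 bp apart, so they overlapped at their edges only.

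These regions were weak. Replicate 1 had 17 regions at fbxc genes, and apart from the leading 2 their signals ran from 4.25 to 9.19, where the whole list began at 4.202 with a median of 6.06. Replicate 2 had 18, and apart from the leading 2 these ran from 7.29 to 16.6, where the list began at 7.18 with a median of 9.47. The median rank of the family's regions was 17250 in replicate 1 and 15131 in replicate 2. Of the 17 in replicate 1, 5 were overlapped by a region of replicate 2.

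Of the 26 genes with no region, the first 10 by position were fbxc-48, fbxc-24, fbxc-27, fbxc-31, fbxc-30, fbxc-36, fbxc-7, fbxc-40, fbxc-39 and fbxc-42. All of these lie on chromosome II, and all but fbxc-48 belong to 1 run of genes. Across the whole family, 16 of 35 genes on chromosome II had no region (45.7%), against 19.4% of the other protein-coding genes of that chromosome. On chromosome IV it was 10 of 13 (76.9%), against 15.6% of all protein-coding genes. Of these 10, 9 are copies in a tandem array described below, in which few 36-base words are unique (occur once in the genome). With windows under 50% unique, 10 of 11 fbxc genes had no region (90.9%), against 80.8% of all protein-coding genes.

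That run is the largest cluster of the family. With gaps of up to 20 kb between members and at least 3 members, the genes formed 3 clusters. The largest, from fbxc-24 to fbxc-42 (chrII:907448-993179, 85.7 kb), holds 18 members, 14 of them on the plus strand, and 11 other protein-coding genes. It held 1 thresholded, 4 pooled, 8 replicate 1 and 10 replicate 2 regions. Per 10 kb this is 0.467 pooled regions, against 1.02 over chromosome II and 0.795 over its first 4237751 bp. Of its 18 members 9 had no region in any list, against 25.3% of the other protein-coding genes in the first 4237751 bp of the chromosome.

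Within the cluster the signal was uneven. The leading region between fbxc-33 and fbxc-29 had a pooled signal of 151.6, and the next 3 had 19.6, 18.5 and 16.8. The region at fbxc-28 lay 7.58 kb and that at fbxc-14 57.6 kb from the leading summit. The region of signal 16.8 lay 67.3 kb from it, outside the window of every fbxc gene.

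**Figure D2:**
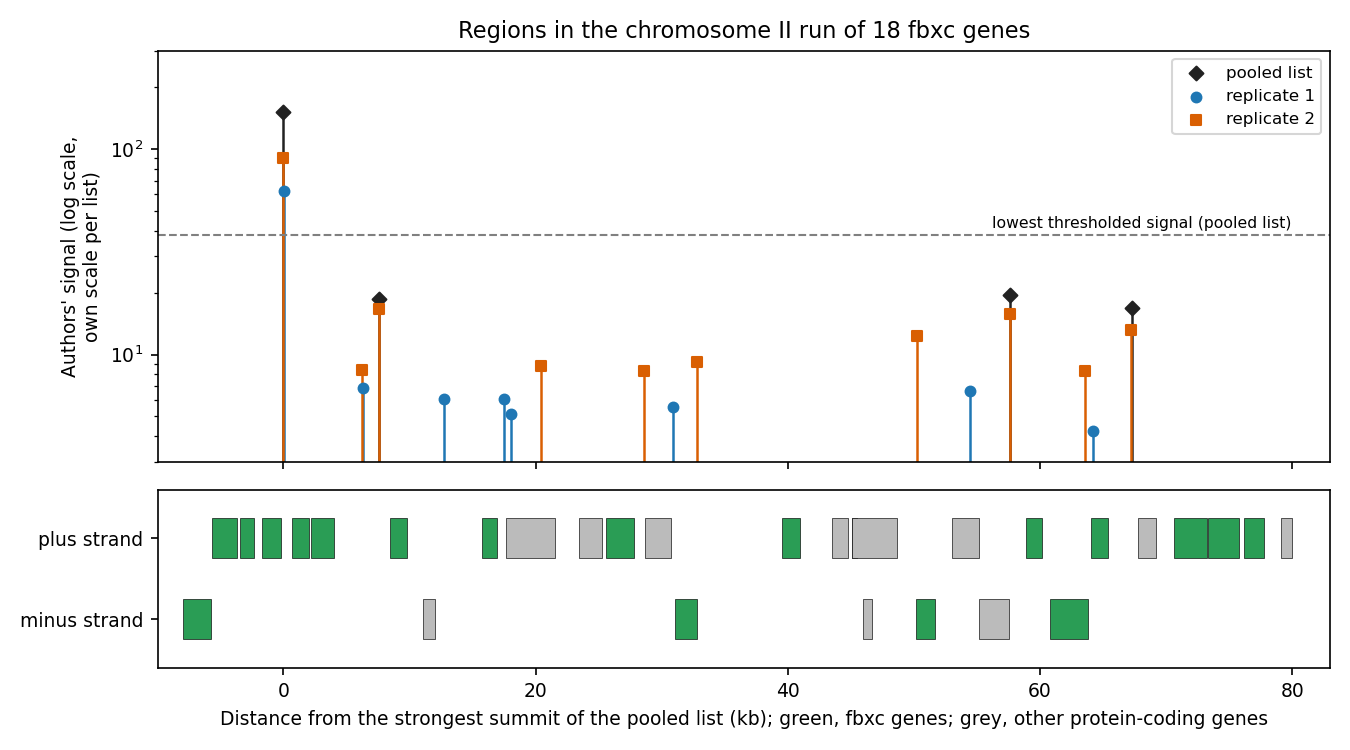
Regions (upper panel, authors' signal on a log scale) and protein-coding genes (lower panel; green, fbxc genes, grey, others) of the chromosome II cluster of 18 fbxc genes, by distance in kb from the strongest summit. The leading summit stands at 151.6 in the pooled list, 62.2 in replicate 1 and 90.7 in replicate 2, and no other region of the cluster comes up to the lowest thresholded signal of 38.19, drawn as a dashed line that applies to the pooled list.

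A second cluster on chromosome II, fbxc-22, fbxc-21 and fbxc-26 (chrII:1689698-1694630), held 0 regions in each of the 4 lists. Its sequence is 98.3% unique. The genes fbxc-22 and fbxc-21 share 84.8% of their bases, and fbxc-26 shares 62.5% with fbxc-21.

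The third cluster is a tandem array on chromosome IV (chrIV:891239-911196, 19.96 kb). Its 10 genes, all on the plus strand, alternate between 5 copies of fbxc-4 or fbxc-5, each 1376 bp long, and 5 copies of fbxc-8 or fbxc-12, of 1781 to 1782 bp. The unit repeats every 4152 to 4153 bp. Copies of the first kind were 99.85 to 100% identical and those of the second 99.83 to 100%, while the 2 kinds shared 50.4 to 50.6% of their bases. No region of any list had its summit inside the array. The regions assigned to the first fbxc-5 copy lie upstream of it. The one in the pooled list and replicate 1 is in sequence that is 100% unique. A second, in replicate 2 (chrIV:890130-890453, signal 8.27, rank 17394), is 77.2% unique.

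Of the array, 0.621% of 36-base words occur once in the genome. How reads that match several places were treated is not given in the sources used here, so an array free of TLP-1 and an array whose reads were set aside cannot be told apart. Few regions of these lists lay in mostly repeated sequence. Of 11608 nuclear pooled regions, 2 were under 50% unique (0.0172%). In replicate 1 it was 65 of 28158 (0.231%) and in replicate 2 31 of 23953 (0.129%). Of the single words of the nuclear genome 92.1% were unique, which is another measure. The share of genome stretches under 50% unique was not computed.

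The remaining fbxc genes are less alike. Outside the array the closest pairs were fbxc-22 with fbxc-21 and fbxc-43 with fbxc-44 (84.1%). The 3 genes at thresholded regions were not close relatives. Identity was 56.4% between fbxc-29 and fbxc-33, 57.7% between fbxc-29 and fbxc-19, and 61.05% between fbxc-33 and fbxc-19, over gene bodies with introns. The closest gene to fbxc-19 was fbxc-28 at 65.8%. All but 1 of the 9 pooled regions at fbxc genes had 0 further copies in the genome, and the exception, at fbxc-5, had 1 match of 113 bp at 84.1% identity.

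Uniqueness of the windows went with regions. The median window of an fbxc gene was 94.6% unique, against 99.2% for all protein-coding genes. With windows at least 90% unique, 8 of 29 fbxc genes had a pooled region (27.6%), against 42.6% of 16469 protein-coding genes. With windows under 90% unique, 1 of 19 fbxc genes had one (5.26%), against 28.5% of 3516. This limit was set after the data were seen. The genes under 90% differ in make-up, since 11 of the 19 fbxc genes are under 50% unique, against 454 of the 3516. Under 50% unique, 1 of 11 fbxc genes had a pooled region (9.09%), against 5.51% of all protein-coding genes. From 50 to 90% unique, 0 of 8 fbxc genes had one, against 31.9%.

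Between 95% and 99% unique, 0 of 11 fbxc genes had a pooled region, against 42.3% of all protein-coding genes. From 99% unique on, 6 of 12 fbxc genes had one (50%), against 43.6%. These 6 include the 3 genes at thresholded regions, and the bins hold few fbxc genes each. Uniqueness therefore did not order the family evenly, and its part in the low counts was not tested.

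**Figure D3:**
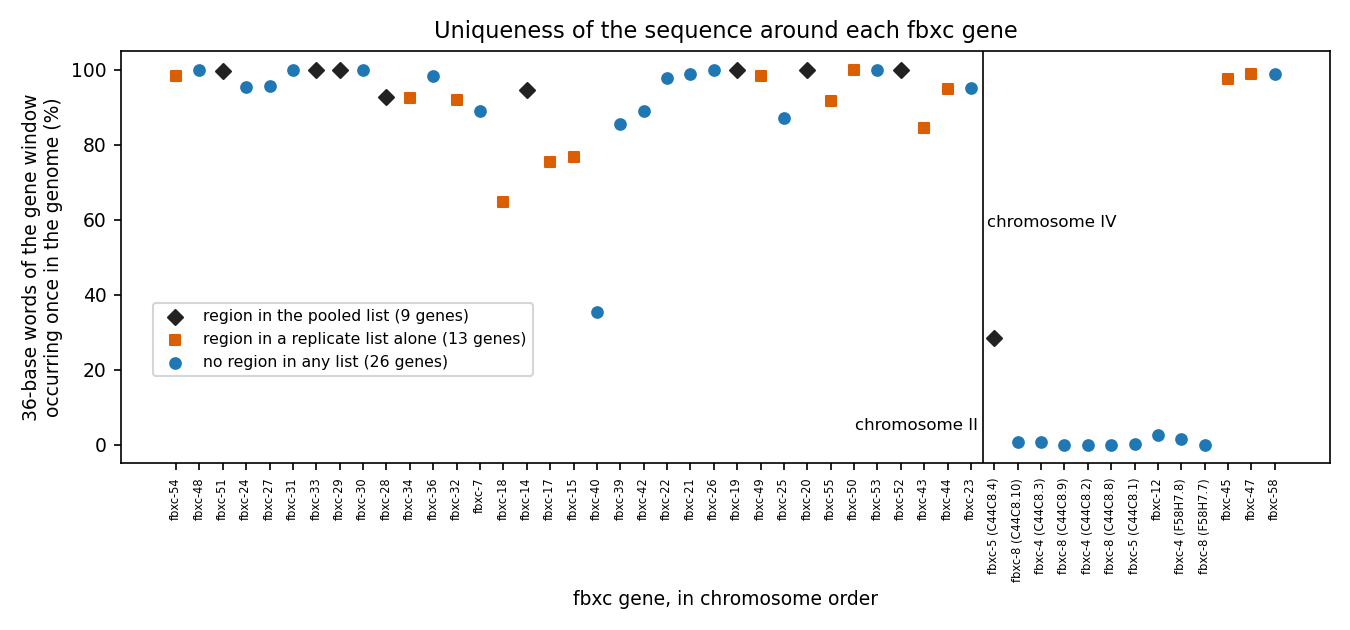
Percent of 36-base words in the window of each fbxc gene that occur once in the genome, by gene in chromosome order, with the lists in which the gene had a region shown by colour and shape. The tandem array on chromosome IV lies near 0%, and 8 of the 9 genes with a pooled region lie at or above 90%, as do 10 of the 15 chromosome II arm genes without any region.

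Place on the chromosome also went with regions of the unthresholded lists. The left arm of chromosome II, from its end to the last base of fbxc-44 at 4237751, holds 34 of the 35 fbxc genes of the chromosome. This arm held 0.795 pooled regions per 10 kb, against 1.10 in the rest of chromosome II. The values were 2.105 against 2.684 in replicate 1 and 1.867 against 2.308 in replicate 2. Thresholded regions went the other way, with 0.0448 on the arm and 0.0389 in the rest. On the arm 8 of 34 fbxc genes had a pooled region (23.5%), against 29.5% of the 1017 other protein-coding genes there. With windows at least 90% unique, it was 8 of 25 fbxc genes (32.0%), against 32.2% of 746 others, and 0.912 regions per 10 kb against 0.930. These 8 genes include the 3 at thresholded regions, which drew attention to the family. The closeness of the shares is therefore not read as a result.

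In the replicate lists the family's shares on the arm lay below those of the other genes. Among these unique windows, 12 of 25 fbxc genes had a region in replicate 1 (48.0%), against 64.6% of the others, and 13 had one in replicate 2 (52.0%), against 59.4%. No region in any list lay at 10 of the 25 (40%), against 20.1%. The other 184 protein-coding genes within 20 kb of an fbxc gene had a pooled region in 33.2% of cases and a thresholded one in 3.8%.

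The other F-box and adaptor families differed among themselves. A pooled region lay at 32.9% of 170 fbxa genes, at 10.6% of the fbxb genes and at 34.2% of 73 genes of the math and bath families, which encode MATH-domain proteins; the bath ones also carry a BTB domain, which binds cullin 3. In the thresholded list 1.77% of all protein-coding genes had a region. The counts there were 3 of 170 fbxa genes (1.76%), 2 of the fbxb genes (1.92%) and 0 of 73 math and bath genes. Besides fbxa-3 and fbxb-10 at the fbxc-19 region, these were fbxb-96 (signal 78.2), fbxa-138 (40.5) and fbxa-163 (38.7). All of these families were, like fbxc, below all protein-coding genes in each of the 3 unthresholded lists. In replicate 1 a region lay at 64.1% of fbxa, 38.5% of fbxb and 57.5% of math and bath genes. In replicate 2 it was 60% of fbxa, 31.7% of fbxb and 57.5% of math and bath genes. The median window of an fbxb gene was 93.1% unique.

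Of the SCF partners, 26 of 28 listed genes were found in the annotation. Of these, 0 had a thresholded region, against 1.77% of all protein-coding genes. A pooled region lay at 6 (23.1%), against 40.1%. The highest signal among them was 23.5, at skr-2, a Skp1-related gene. Another Skp1-related gene, skr-13, had 14.6, and the cullin gene cul-1 had a signal of 14.03. A single region of signal 18.7 lay at skr-19, skr-20 and skr-21. No SCF partner thus came up to the lowest thresholded signal.

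**Figure D4:**
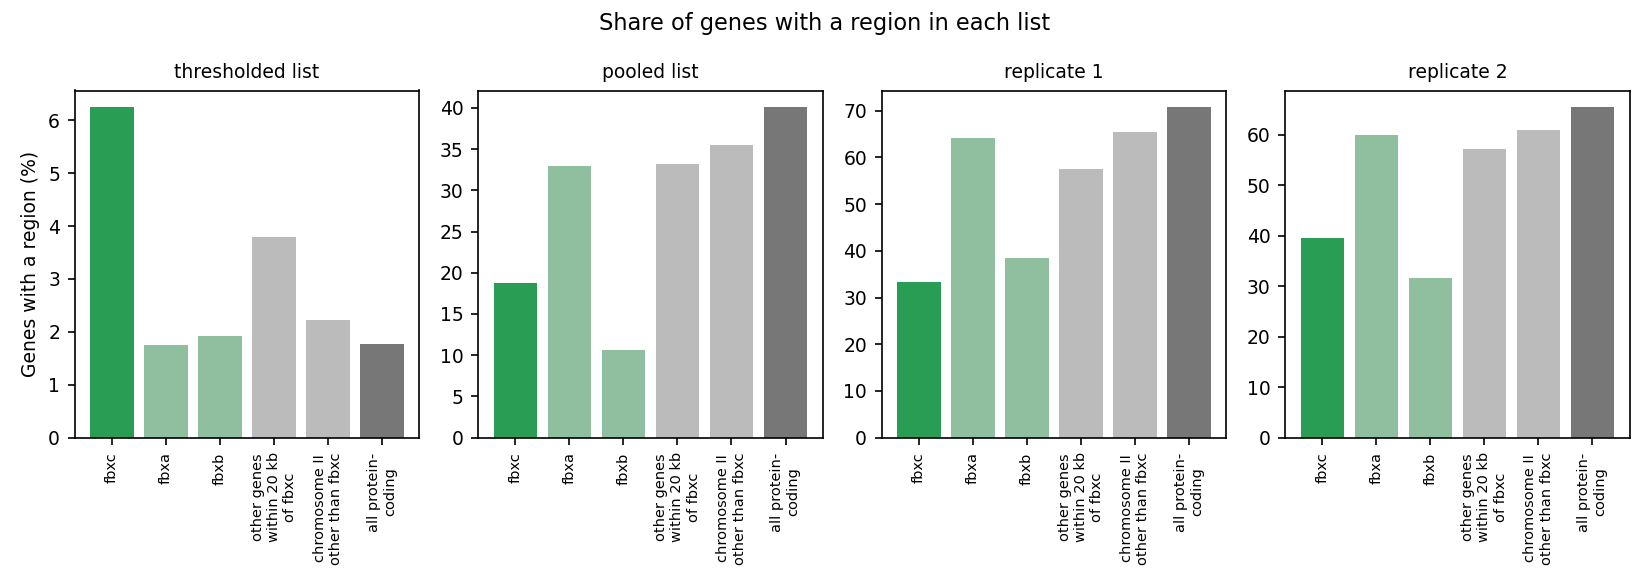
Percent of genes with a region in the thresholded list, the pooled list and each replicate, for fbxc genes, the fbxa and fbxb families, other genes within 20 kb of an fbxc gene, other genes of chromosome II and all protein-coding genes; each panel has its own axis from 0. The fbxc bar is the highest in the thresholded panel, where it stands for 3 of 48 genes, and lies below the bar of all protein-coding genes in the other 3 panels.

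At the family's pooled regions GATA sites were counted near the summit. Of the 9, 6 had WGATAR no more than 50 bp from it (66.7%, 95% exact Clopper-Pearson interval 29.9 to 92.5, which covers counting error only), against 32.0% of 11608 nuclear pooled regions. The interval reaches below that share, and it is no test, since the 9 include the 2 regions that drew attention to the family. The value rests on few regions and on the library. Among the first 11633 regions of 1 replicate, 57.1% of those at fbxc genes had a site without replicate 1, and 40% without replicate 2. Within 25 bp of the summit it was 33.3% of the 9, against 19.2% of nuclear pooled regions. Both thresholded regions of the family had a site, as did 88.8% of the 303 nuclear thresholded regions. Below the threshold it was 4 of 7 (57.1%), against 30.5% of 11305.

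The printed sequences show where the sites lie. The printed stretch of the leading region, between fbxc-33 and fbxc-29, holds 4 sites, centred 28.5 and 10.5 bp before and 3.5 and 40.5 bp after the summit. The region reaches past this stretch and holds further matches outside it or across its edge, among them those centred 63.5 and 70.5 bp after the summit. The stretch at fbxc-19 holds 2, centred 27.5 and 36.5 bp after the summit, each of them TGATAAG when read with the base that follows. That word is CTTATCA on the other strand, an element that contains a WGATAR match and was searched as well. At fbxc-14 the nearest site was centred 0.5 bp from the summit, and at fbxc-28 6.5 bp from it.

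The 2 regions at fbxc-20 had 1 site each in that span, and those at fbxc-52, fbxc-5 and fbxc-51 had none. The regions with a site were thus the 6 of highest signal and those without the 3 of lowest. TGATAA occurred at 5 of the 9 (55.6%), against 20.3% of nuclear pooled regions, and CTTATCA at 2 (22.2%), against 8.27%. The replicate lists differed from this. In replicate 1, 3 of 17 regions at fbxc genes had WGATAR (17.6%), against 25% of that list, and in replicate 2, 6 of 18 (33.3%), against 26.9%.

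**Figure D5:**
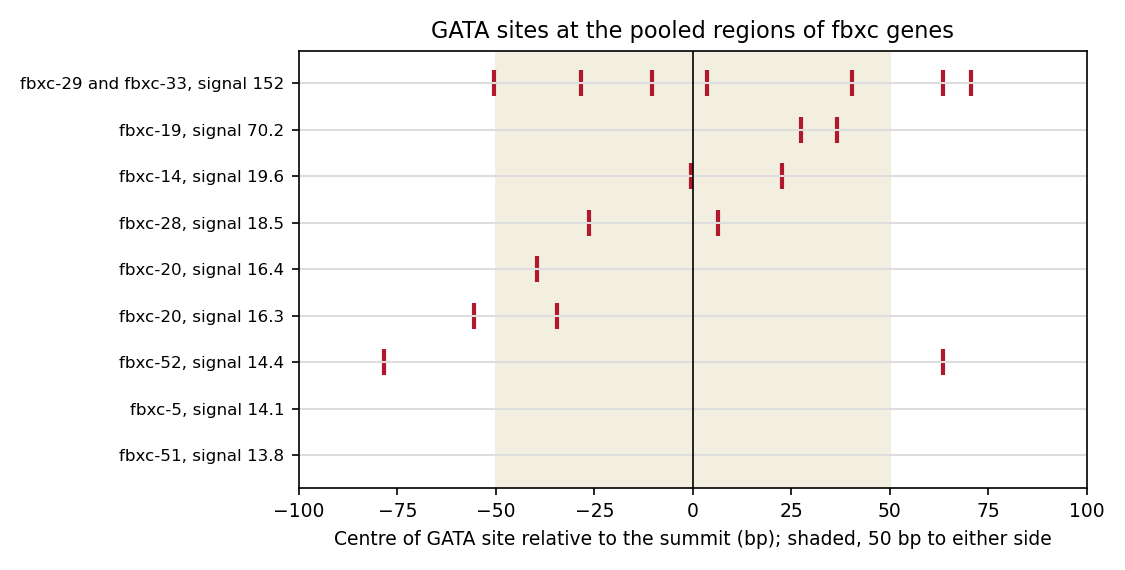
Centres of WGATAR matches on either strand within 100 bp of the summit of each of the 9 pooled regions at fbxc genes, ordered by signal from top to bottom, with the 50 bp to either side shaded. The region of signal 151.6 has 4 sites wholly within the shaded part, and the 3 regions of lowest signal have none there.

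Sites in the promoters were also counted. Over 250 bp before and 50 bp after the gene start, WGATAR occurred in 28 of 48 fbxc genes (58.3%), against 54.5% of all protein-coding genes. It occurred in 5 of the 9 with a pooled region (55.6%) and in 23 of the 39 without one (59.0%). No pooled summit at an fbxc gene lay within that span, so these shares cannot show whether sites go with regions. On chromosome IV, where the array repeats the same promoters, 12 of 13 held it, against 16 of 35 on chromosome II. CTTATCA occurred in 4.17% of fbxc promoters, against 9.19% of all.

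Promoters of the family were richer in G and C, with a median of 40.3% against 34.3% for all protein-coding genes. Among promoters of at least 40% G and C, 5 of 25 fbxc genes had a pooled region (20%), against 37.0% of all protein-coding genes. From 30 to 35%, 4 of 18 fbxc genes had one (22.2%), against 40%. The share at fbxc genes was below that of all genes in both ranges. Each range holds 5 copies of the chromosome IV array, those of fbxc-4 or fbxc-5 in the lower and those of fbxc-8 or fbxc-12 in the higher. Their windows were 0 to 28.5% unique, and the part of this in the shares was not tested.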

How the data were processed

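Regions came from ChIP-seq of eGFP-tagged TLP-1 in 2 biological replicates. Per the file headers and readme text, the authors made 1 list per replicate and a pooled list from alignments and a control, and derived the thresholded list from these. Signal and −log10 q-values are as the authors deposited them; signals set the ranks, and no result rests on the q-values. Aligner, read length and peak caller have no statement in the sources used here, and depth is unknown. Summits on ce11 were assigned to Ensembl release 115 genes (gene body or within 2000 bp of any TSS) with Python 3.11.15, pandas 2.3.3 and scipy 1.17.1, and copies were searched with BLAST 2.17.0 and gene bodies aligned with Biopython 1.88. Uniqueness is the percent of 36-base words found once in the genome on both strands. The assignment and motif code was tested on simulated data. The text names every member with a thresholded or pooled region, the first 10 members without regions, and SCF genes at pooled regions. The last were named after their values were seen, since 0 had a thresholded region, as were members with replicate regions alone. Members and lists were chosen with earlier results of these data known. With 1 group, no comparison between groups and no p-value was computed.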

Additional observations from a re-analysis of the deposited data

How the results depend on the processing

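The counts moved with the reach around a start. With 500 bp, 3 fbxc genes had a pooled, 1 a thresholded and 3 an overlapping region of both replicates (26.5% of all protein-coding genes pooled, 1.06% thresholded, 0.297 pooled regions per 10 kb at members). With 5000 bp it was 18, 6 and 10 (62.8%, 3.47%), and with gene bodies alone 1, 0 and 0 (19.6%, 0.555%, 0.123 per 10 kb). With 1000 bp all genes stood at 31.4% and 1.32%. With the nearest start alone, 6 members had a pooled, 2 a thresholded and 3 an overlapping region of both replicates. All genes then stood at 28.8% pooled and 1.19% thresholded. Overlapping regions of both replicates were counted over all genes at the main setting alone (31.7%). The member counts of such regions at other settings therefore have no share to be set against. With an overlap of at least 50% of the shorter region, 4 members had one (8.33%), where 1 bp gave 6. Any base of the region gave 42.0% of all genes pooled. The first 164 and 656 pooled regions left 3 members each, against 0.896% and 3.36% of all genes. Without one replicate, the pooled count was 6 to 8 members (41.0 to 41.7% of all genes), with 0.323 to 0.452 regions per 10 kb, and 3 members had a thresholded-length region. Windows at least 90% unique, added after the data were seen, gave 42.6% of all genes. With 50-base words, also added later, the median window was 96.8% unique at fbxc genes, against 99.9% at all genes. CTTATCA in place of WGATAR lay at 22.2% of the members' regions, and 2 regions had summits of both replicates within 100 bp. Under every reach tried, the pooled share of members stayed below that of all genes. The cause of these moves was not tested, beyond the wider or narrower windows themselves. Limits are 2 replicates, unknown depth, 9 pooled regions at members and no list from untagged animals.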
